A study of Mus musculus with 2 samples.

Results

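A set of 10 genes covers the making and sensing of macrophage growth factors in newborn mouse lung, along with genes of the cells that respond: the ligand genes Csf1, Il34 and Csf2, the receptor genes Csf1r, Csf2ra and Csf2rb, and the alveolar macrophage and scavenger genes Pparg, Marco, Mrc1 and Mertk. They were chosen by symbol for their known roles, with earlier results of these data known. Through gene identifiers matched without their version, all 10 were found among the 43346 mouse genes of both gene tables. The samples form 1 group, untreated as far as the labels say: newborn B6NCrl mice at postnatal day 0. Pup 1 and pup 3 of pregnancy 1 each gave both of their lungs to a single library, from 10 ng of RNA longer than 200 nt. The labels record 1 donor identifier for both libraries and no sex, so n = 2 rests on the pup numbers and on the labels' biological replicate numbers 1 and 2. The library of pup 1 held 42189536 expected counts in genes and that of pup 3 held 37026165. Levels are in TPM, a share of all transcripts that divides counts by the effective length of a gene and so allows genes to be set side by side.

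CSF-1 and IL-34 are secreted proteins that bind the same receptor tyrosine kinase, CSF1R, on which most tissue macrophages depend for survival. GM-CSF, the product of Csf2, signals through a specific alpha chain, Csf2ra, and a beta chain, Csf2rb, that IL-3 and IL-5 receptors also use. Around birth in mice, GM-CSF turns fetal monocytes of the lung into alveolar macrophages through the nuclear receptor PPAR-gamma, and these cells clear surfactant from the airspace. MARCO and the mannose receptor Mrc1 take up particles and glycoproteins, and MERTK binds apoptotic cells through the bridging proteins GAS6 and protein S.

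The 552 codons of the long Csf1 frame and the 257 codons of the short one part at a single junction on chromosome 3. The sequences there are shown because the tables split most of the gene's abundance between these frames. The long frame holds a stretch of 885 coding bases that the short one lacks. It is known to encode the spacer that carries the cleavage and glycosaminoglycan sites of the secreted forms, while the short form stays at the cell surface. Both frames share 544 coding bases before the junction, the last of them at position 107750311 on the minus strand of mm10. The next base is at 107749169 in the long frame and at 107748284 in the short frame. Lower case marks the 30 shared bases before the junction, and capitals mark the 30 bases after it, which tell the forms apart.
Csf1 long: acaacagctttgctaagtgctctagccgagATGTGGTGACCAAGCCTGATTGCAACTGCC
Csf1 short: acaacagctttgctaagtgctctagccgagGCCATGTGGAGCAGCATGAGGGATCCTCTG

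All 10 genes were detected at TPM 1 or more in both pups, a level reached by 14343 genes. They ranged from Il34 at 23.6 ± 4.07 TPM (SD, n = 2) down to Pparg at 6.36 ± 0.658 TPM. Il34 stood above 63.7% of the detected genes and Pparg above 30.1%. Of the 9 neighbouring pairs in the order of levels, 3 did not overlap between the pups, namely Il34 over Csf1r, Csf1r over Csf2 and Csf1 over Mertk. The other 6 neighbouring pairs overlapped. Farther apart in the order, Csf2 lay above Csf1, and Mertk, Mrc1 and Marco each lay above Pparg, without overlap.

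**Figure D1:**
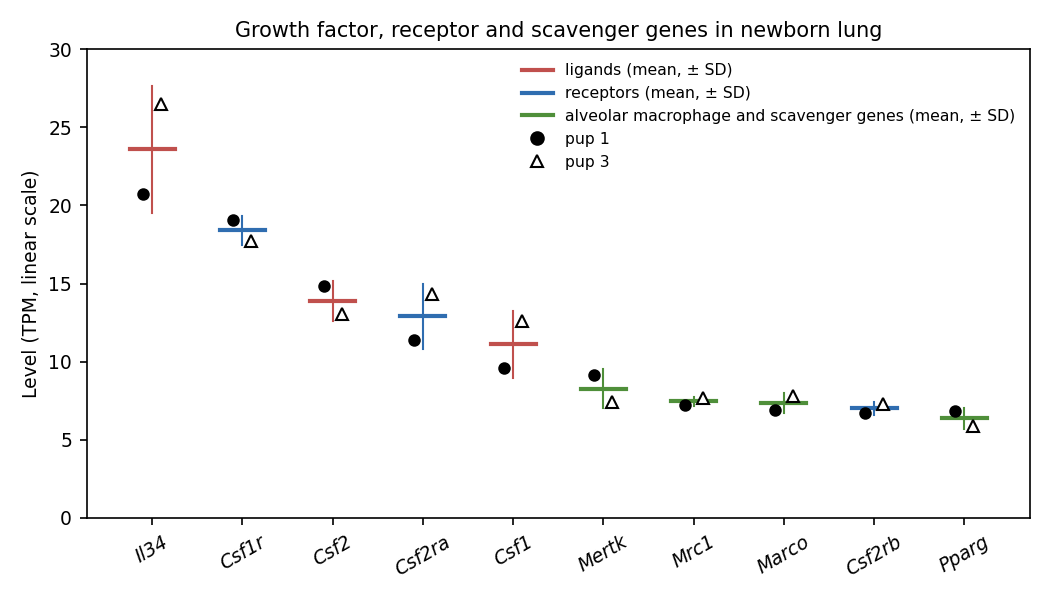
Level of each gene in TPM on a linear axis, with a circle for pup 1, a triangle for pup 3, a horizontal bar for the mean and a vertical bar for ± SD over the 2 pups, coloured by role. Il34 and Csf1r stand highest, at 23.6 and 18.4 TPM on average, and the 4 alveolar macrophage and scavenger genes lie between 5.89 and 9.14 TPM.

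Among the ligands, Il34 (chromosome 8, 110741829 to 110805924, minus strand, mm10) was the most abundant by gene total. It held 20.8 TPM in pup 1 and 26.5 TPM in pup 3, from 763 and 912 counts. Csf1 (chromosome 3, 107741048 to 107760469, minus strand) held 9.61 TPM in pup 1 and 12.6 TPM in pup 3, from 882 and 996 counts. Both ligands of CSF1R were thus higher in pup 3, and the lower value of Il34 exceeded the higher value of Csf1. Within each library Csf1 lay below Il34 by nearly the same amount, with differences in log2(TPM + 1) of -1.04 in pup 1 and -1.01 in pup 3, a mean of -1.03 ± 0.01 (SD, n = 2).

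Il34 is known above all from keratinocytes and neurons. Of 6 keratinocyte and basal epithelial markers, 3 were detected, and their summed level was 32.3 TPM in pup 1 and 59.7 TPM in pup 3. Krt15 held most of that sum, with 24.8 TPM in pup 1 and 52.0 TPM in pup 3. The defining markers Krt5 (0.03 and 0.1 TPM), Trp63 (0.15 and 0.11 TPM) and Krt1 (0.25 and 0.34 TPM) were under TPM 1 in both pups. The other detected markers were Krt10 (5.1 and 5.59 TPM), whose interval held 1, and Krt14 (2.04 and 1.56 TPM), higher in pup 1 by the interval. The part of such cells in the Il34 level was not tested. In bulk RNA, fewer cells of a type and less RNA per cell cannot be told apart, and this holds for every level given here.

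Csf2 (chromosome 11, 54247271 to 54249667, minus strand) held 14.9 TPM in pup 1 and 13.04 TPM in pup 3, from 336 and 251 counts. It rested on the fewest counts of the 10 genes, over a transcript of 800 bases. Csf2 stood above 50.1% of detected genes. Alveolar type 2 cells are a known source of GM-CSF in the newborn lung, and their 8 markers were all detected, with a summed level of 85358 TPM in pup 1 and 76589 TPM in pup 3. Innate lymphoid, T and NK cells can also make GM-CSF. Of the 10 markers of those cells, 2 were detected, Rora and Gata3, which other cells express as well. Cd3e (0.14 and 0.16 TPM), Il7r (0.44 and 0.61 TPM) and Il2ra (0.03 and 0.01 TPM) were under TPM 1. The part of either cell type in the Csf2 level was not tested.

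The CSF1 receptor gene, Csf1r (chromosome 18, 61100598 to 61132149, plus strand), was the most abundant receptor of the 3. It held 19.1 TPM in pup 1 and 17.7 TPM in pup 3, from 2594 and 2002 counts. Its 2 ligands lay on either side of it. Il34 exceeded Csf1r within both libraries, by 0.12 and 0.56 in log2(TPM + 1), whereas Csf1 lay below it, by -0.92 and -0.46. The last exons of Csf1r overlap Hmgxb3 on the opposite strand, a gene with 926 counts in pup 1 and 874 in pup 3. The posterior SD of the Csf1r count was 7.46 counts in pup 1 and 7.37 in pup 3, a small part of the gene's total.

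Csf2ra (chromosome 19, 61223957 to 61228429, minus strand), the chain that gives the GM-CSF receptor its specificity, held 11.4 TPM in pup 1 and 14.4 TPM in pup 3, from 643 and 690 counts. Csf2rb (chromosome 15, 78325752 to 78353847, plus strand), the shared signalling chain, held 6.71 TPM in pup 1 and 7.31 TPM in pup 3, from 1010 and 936 counts. The alpha chain exceeded the beta chain within both libraries, by 0.68 and 0.89 in log2(TPM + 1), a mean of 0.79 ± 0.14 (SD, n = 2), and their ranges over the pups did not overlap. The ligand Csf2 exceeded Csf2rb within both libraries, by 1.04 and 0.76. Against Csf2ra it turned sign, with 0.36 in pup 1 and -0.13 in pup 3, so ligand and alpha chain were not separated.

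Mice carry a close paralog of the beta chain, Csf2rb2 (chromosome 15, 78282507 to 78305721, minus strand), whose product serves the IL-3 receptor. Their coding sequences were identical at 2504 of 2626 aligned bases, or 95.4%. The first 90 coding bases of each are shown because a read from this stretch is told apart by at most 3 bases, which are in capitals, with the rest in lower case. Csf2rb starts at 78335207 and Csf2rb2 at 78298229 on mm10.
Csf2rb: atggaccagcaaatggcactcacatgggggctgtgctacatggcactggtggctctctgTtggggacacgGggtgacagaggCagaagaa
Csf2rb2: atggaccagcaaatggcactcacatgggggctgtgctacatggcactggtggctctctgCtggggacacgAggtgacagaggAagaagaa

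Of 4665 windows of 100 bases along the Csf2rb transcript, 334 (7.16%) also occurred unchanged in the Csf2rb2 transcript. The tables gave Csf2rb2 110.5 counts in pup 1 and 107.85 in pup 3, or 9.87% and 10.3% of the counts of both genes. Its level was 0.76 TPM in pup 1 and 0.87 TPM in pup 3, under TPM 1 in each. The posterior SD of the Csf2rb count was 2.55 counts in pup 1 and 2.48 in pup 3. The division between the paralogs remains an estimate of the counting, and no read could be traced here.

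The 4 alveolar macrophage and scavenger genes lay close together. Mertk (chromosome 2, 128698956 to 128802894, plus strand), the receptor for apoptotic cells, held 9.14 TPM in pup 1 and 7.39 TPM in pup 3, from 1240 and 842 counts. Mrc1 (chromosome 2, 14229392 to 14332057, plus strand), the mannose receptor, held 7.24 TPM in pup 1 and 7.66 TPM in pup 3, from 1081 and 1004 counts. Marco (chromosome 1, 120474538 to 120505024, minus strand), a class A scavenger receptor, held 6.91 TPM in pup 1 and 7.81 TPM in pup 3, from 367 and 363 counts. The ranges of these 3 genes overlapped. Relative to Marco, both Mertk (0.36 and -0.07 in log2(TPM + 1)) and Mrc1 (0.06 and -0.02) turned sign between the pups.

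Pparg (chromosome 6, 115360951 to 115490399, plus strand) held 6.82 TPM in pup 1 and 5.89 TPM in pup 3, from 378 and 277 counts, and was the lowest of the 10 genes on average. Its range overlapped that of Csf2rb, and it lay below Marco in both libraries, by -0.02 and -0.35 in log2(TPM + 1). PPAR-gamma is also the master regulator of fat cells and is present in lipofibroblasts. None of 8 adipocyte markers reached TPM 1 in both pups, with Adipoq at 0.07 and 0.03 TPM, Plin1 at 0.26 and 0.35 TPM and Lep at 0 in both. All 8 lipofibroblast markers were detected, led by Tcf21 (671 and 625 TPM), Gyg (316 and 339 TPM) and Limch1 (283 and 305 TPM). The part of lipofibroblasts in the Pparg level was not tested.

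Pparg is read from separate starts, and the tables hold a model of each: Pparg-202, with 475 codons, and Pparg-201, with 505 codons, known as the PPAR-gamma 1 and PPAR-gamma 2 forms. The first coding bases are shown because 30 codons at the beginning of Pparg-201 are all that separates the proteins. Capitals mark the 90 bases that only Pparg-201 has, from 115422111 on mm10, and lower case marks the first 30 shared bases, from 115439848.
Pparg-201: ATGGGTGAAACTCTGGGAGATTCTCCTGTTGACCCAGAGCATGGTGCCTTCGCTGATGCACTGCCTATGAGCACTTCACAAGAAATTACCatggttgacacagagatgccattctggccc
Pparg-202: atggttgacacagagatgccattctggccc

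The starts of the Pparg models lie 61115 bases apart, and the 57 bases before each are shown because the 2 stretches differ in composition. They were taken from the RefSeq promoter table of GRCm38.p6 (the mm10 assembly), which held 7 of the 10 genes, and capitals mark each CG pair. The stretch before Pparg-201 (chromosome 6, 115422009 to 115422065) had 38.6% G and C and 1 CG pair. The stretch before Pparg-202 (115360894 to 115360950) had 87.7% G and C and 9 CG pairs. Over 32851 promoters, the median of 57 bases at a fixed place in each entry was 56.1% G and C with 2 CG pairs. In that fixed stretch, at least 1 CG pair occurred in 69.8% of promoters and at least 9 in 6.57%. The Pparg stretches were placed by the starts of the models instead, so their position in an entry need not be the same. CG reads the same on both strands, so a single search covers both.
Pparg-201: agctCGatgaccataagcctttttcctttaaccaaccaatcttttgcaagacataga
Pparg-202: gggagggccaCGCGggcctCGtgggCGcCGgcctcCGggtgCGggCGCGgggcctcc

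Pparg-202 held 54.0% of the gene's abundance in pup 1 and 50.2% in pup 3, and Pparg-201 held the remaining 46.0% and 49.8%. The estimated counts of Pparg-202 were 209 in pup 1 and 143 in pup 3, with posterior SDs of 29.6 and 40.7 counts. Neither form stood above the other beyond that error. The model of Pparg-202 is 1857 bases long in the tables and 2125 in the later annotation used for coordinates, so its start in the counting may differ from the one printed.

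The transcript models of the other genes are described next, since a gene's total can hold products with different roles. For Csf1, 2 models of the long frame, identical in coding sequence, together held 49.7% of the abundance in pup 1 and 53.4% in pup 3. The model of the short, cell-surface frame held 35.1% and 38.2%. The long frame exceeded the short one in both libraries, by shares, with a mean of 51.6% ± 2.67 against 36.6% ± 2.18 (SD, n = 2). Posterior SDs were large, at 52.3 and 61.5 counts on the 425 counts of the longest model, of 4176 bases, in each pup. In the posterior mean percentages the long frame held 42.9% and 49.2%, still above the 35.1% and 37.4% of the short one. These shares leave out a protein-coding model of 773 bases, which held 14.1% in pup 1 and 7.68% in pup 3. That model ends at position 107750380, before the junction, so it could not be given to either frame. Its posterior mean percentages were 13.8% and 8.02%, above the gap between the frames in pup 1 and below it in pup 3. The order of the frames in pup 1 is therefore not settled.

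For Il34, protein-coding models held 60.1% of the abundance in pup 1 and 68% in pup 3, and the model of 235 codons led with 48.5% and 58.6%. Processed transcripts without a coding frame held the rest, 40.0% and 32.0%, so the protein-coding level of Il34 was 12.5 TPM in pup 1 and 18.0 TPM in pup 3. Short models weigh heavily in these shares, since a processed transcript of 309 bases held 18.5% and 8.83% from 26.0 and 13.5 counts. The protein-coding part of Il34 was thus below the Csf1r total in pup 1 and above it in pup 3. The same held against Csf2, at 14.9 TPM in pup 1 and 13.04 TPM in pup 3. By protein-coding models, Il34 was therefore not the most abundant ligand in pup 1.

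The Csf1r models Csf1r-201 and Csf1r-202 encode the same 977 codons. Csf1r-201 held 46.2% in pup 1 and 58.4% in pup 3, against 53.8% and 41.6% for Csf1r-202, so the leading model changed between the pups. Their counts carried posterior SDs between 90.6 and 131 counts. Marco-201, the model of 518 codons, held 88.5% and 91.4% of Marco. The Mrc1 model of 1456 codons held 80.5% and 84.8% of the gene, with the rest in a retained-intron model. Mertk-201, of 994 codons, held 100% in pup 1 and 96.6% in pup 3. Csf2, Csf2ra and Csf2rb were counted over 1 transcript each.

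**Figure D2:**
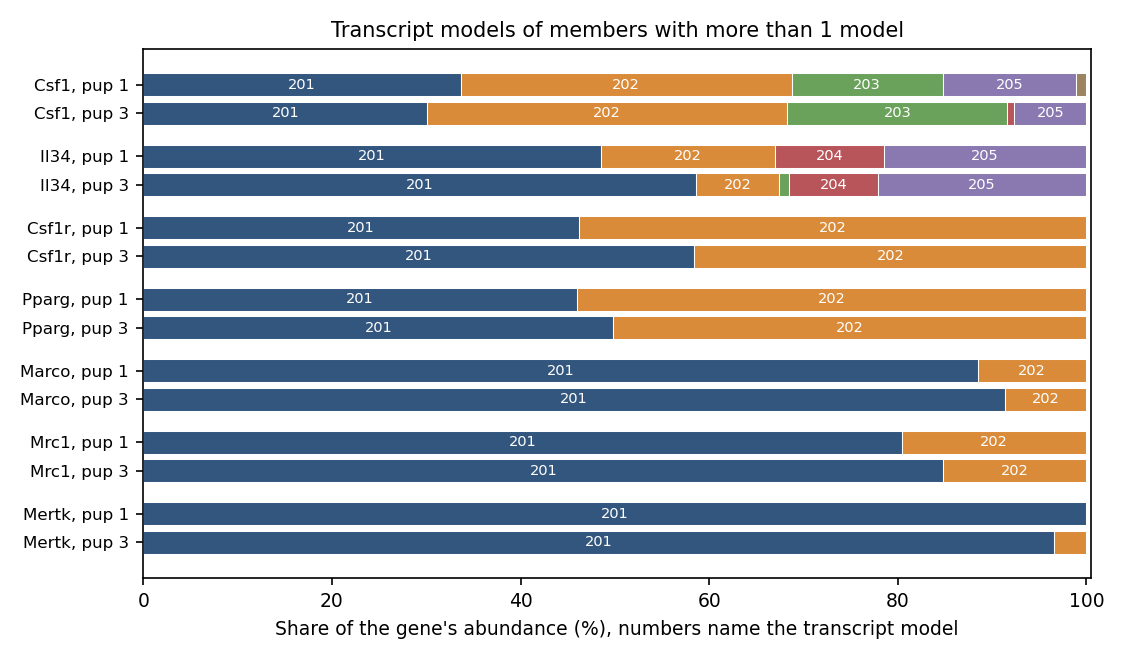
Share of each gene's abundance held by its transcript models, in percent, with 1 bar per pup for the 7 genes counted over more than 1 model, and the models named by number where they hold at least 6%. Csf1 and Il34 are divided among several models, Csf1r and Pparg between a pair of models near equal shares, and Marco, Mrc1 and Mertk have 1 leading model.

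To set ligands, receptors and effector genes side by side, the mean log2(TPM + 1) of each set was taken in each pup and subtracted. Gene totals were used, which for Il34 include the processed transcripts. The 3 ligands lay above the 3 receptors by 0.31 in pup 1 and 0.38 in pup 3, a mean of 0.35 ± 0.05 (SD, n = 2). That gap rested on single genes, since it was 0.06 without Il34 and 0.00 without Csf2rb. The receptors lay above the 4 alveolar macrophage and scavenger genes by 0.55 and 0.71, a mean of 0.63 ± 0.12, which became 0.34 without Csf1r and 0.98 without Csf2rb. The ligands lay above the alveolar macrophage and scavenger genes by 0.86 and 1.09, a mean of 0.98 ± 0.16, or 0.69 without Il34. In summed TPM the ligands reached 45.2 in pup 1 and 52.1 in pup 3, the receptors 37.2 and 39.4, and the alveolar macrophage and scavenger genes 30.1 and 28.8. With 2 pups the smallest exact 2-sided sign-flip p is 0.5, so no test is given.

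The pups were then compared gene by gene, a comparison of 1 library with another that has no replicate check. The rule for a difference had 3 parts: a 2-fold ratio or more, a summed count of 50 or more, and a 95% counting interval without the value 1. None of the 10 genes differed by this rule, against 1.40% of 15790 tested genes (0.659% higher in pup 1 and 0.741% higher in pup 3). With spike-in scaling, the genes that differed numbered 161 higher in pup 1 and 82 higher in pup 3, against 104 and 117 with TMM. Mertk was 1.33-fold higher in pup 1 (interval 1.22 to 1.45). Il34 had a ratio of pup 1 to pup 3 of 0.755 (0.685 to 0.832), and Csf1 of 0.799 (0.729 to 0.876). Both CSF1R ligands were thus lower in pup 1, and Csf1r itself was higher there, at 1.17 (1.10 to 1.24).

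The interval alone left out 1 for 7 of the 10 genes, against 46.2% of all tested genes (24.6% higher in pup 1 and 21.6% higher in pup 3) and 45.9% of the 7348 genes with summed counts in the same range. Csf1r, Csf2, Mertk and Pparg were higher in pup 1, and Il34, Csf1 and Csf2ra were higher in pup 3. Csf2 stood at a ratio of 1.21 (1.02 to 1.43), Pparg at 1.23 (1.05 to 1.44) and Csf2ra at 0.841 (0.754 to 0.938). Ratios for Marco (0.912, interval 0.787 to 1.06), Mrc1 (0.972, 0.891 to 1.06) and Csf2rb (0.974, 0.890 to 1.07) had intervals that held 1. Scaling by spike-ins, which moved the median log2 ratio of all tested genes from 0.01 to 0.15, turned these 3 to the other sign (0.01, 0.10 and 0.11, all below that median) and none of the other 7. These intervals cover counting error only, and differences between animals or library preparations come on top. The median size of the log2 ratio was 0.26 over the 10 genes, 0.14 over all tested genes and 0.12 over the 7348 genes in that range of counts.

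**Figure D3:**
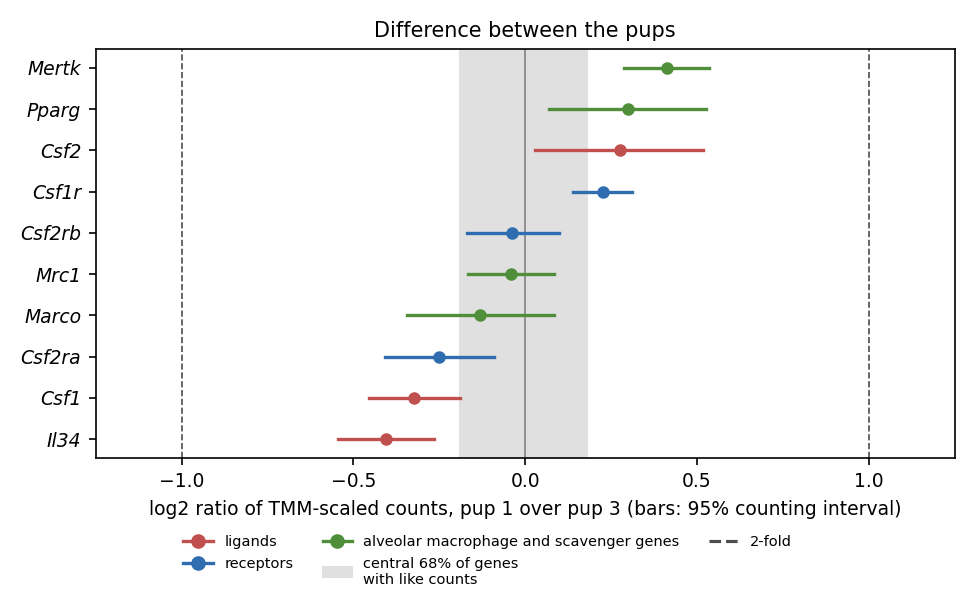
Log2 ratio of TMM-scaled counts of pup 1 over pup 3 for each gene, with the 95% counting interval as a bar, coloured by role. Grey marks the central 68% of tested genes in the same count range (-0.19 to 0.18) and dashed lines mark 2-fold, which none of the 10 genes reaches. Mertk lies farthest to the right at 0.41 and Il34 farthest to the left at -0.41.

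The macrophage identity of the tissue was checked with markers. All 16 pan-macrophage markers were detected, with a summed level of 4104 TPM in pup 1 and 3539 TPM in pup 3, led by Lyz2 (3232 and 2664 TPM), Lgals3 (357 and 326 TPM) and Fcer1g (114 and 107 TPM). Lyz2 and Lgals3 are expressed by lung epithelium as well. Adgre1, which encodes F4/80, held 5.06 and 5.97 TPM, below Mrc1 in both pups. Cd14, the lipopolysaccharide co-receptor, was the only one of the 16 that differed by the 2-fold rule, against 1.40% of all tested genes. It held 29.3 TPM in pup 1 and 89.4 TPM in pup 3, 2.88-fold higher in pup 3 (interval 2.70 to 3.06). By the interval alone, 7 of the 16 were higher in pup 1 and 2 higher in pup 3, against 24.6% and 21.6% of all tested genes.

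Markers of mature alveolar macrophages were uneven. Of 16, 11 were detected and none differed by the 2-fold rule, with a summed level of 1025 TPM in pup 1 and 910 TPM in pup 3. Fabp5 (569 and 435 TPM), Car4 (152 and 169 TPM) and Ear2 (128 and 105 TPM) led, and epithelial or endothelial cells of the lung are known to express the first and second of these. Plet1 (47.3 and 53.8 TPM), Fabp4 (42.9 and 47.8 TPM) and Abcg1 (36.4 and 48.2 TPM) lay above Marco and Pparg in both pups. So did Chil3 (16.9 and 17.2 TPM), which is also on the monocyte list, and Ear1 (10.98 and 12.53 TPM). Atp6v0d2 (6.85 and 9.18 TPM) and Ctsk (7.84 and 7.35 TPM) lay above Pparg in both, but above Marco in only 1 pup each. Itgax (1.43 and 1.33 TPM) was detected below Marco and Pparg. The defining surface marker Siglecf stood at 0.9 TPM in pup 1 and 0.8 TPM in pup 3, below TPM 1 and below Marco and Pparg in both. Krt79 was also under TPM 1 in both pups (0.92 and 0.69 TPM). The part of alveolar macrophages in the levels of this list was not tested.

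Of 10 interstitial and fetal macrophage markers, 5 were detected and none differed by the 2-fold rule. Cbr2 (4060 and 4038 TPM), a known club cell product, Lyve1 (300 and 188 TPM), known from lymphatic vessels, and Gas6 (153 and 176 TPM) led. Cd163 (0.58 and 0.59 TPM), Folr2 (0.82 and 0.89 TPM), Ccl24 (0.39 and 0.4 TPM) and Timd4 (0.12 and 0.12 TPM) were under TPM 1. The other detected markers were Pf4 (143 and 128 TPM), above Mrc1 in both pups, and F13a1 (5.58 and 7.37 TPM), below it in both. Mrc1, which these macrophages and endothelial cells are also known to express, was above the 4 genes under TPM 1, as is every detected gene. The 6 lymphatic endothelial markers were all detected, with 243 TPM in pup 1 and 310 TPM in pup 3. Ccl21a (122 and 166 TPM) and Pdpn (104 and 125 TPM) held most of that sum, and Pdpn is also on the alveolar type 1 list. The others each held 8.67 TPM or less. The 8 general endothelial markers were all detected too, with 1884 and 1928 TPM. The part of endothelial cells in the Mrc1 level was not tested.

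The relatives and signalling partners of the CSF receptors showed which other cytokines of the family were present. Of 17 genes, 12 were detected, led by the adaptor Tyrobp (213 and 184 TPM) and the STAT5 target Cish (52.6 and 57.7 TPM). Csf2 was above the other ligands of beta-chain receptors. Il3 was listed at 0 in both pups, and Il5 at 0 and 0.03 TPM, where 3 counts correspond to 0.0711 CPM in pup 1 and 0.0810 CPM in pup 3. Among receptor chains, Il3ra held 10.9 and 9.03 TPM and Il5ra 0 and 0.07 TPM. None of 13 tested genes differed by the 2-fold rule, and the interval alone left out 1 for 3 genes higher in pup 1 and 6 higher in pup 3, against 24.6% and 21.6% of all tested genes. Socs3, a feedback inhibitor of cytokine signalling, came closest, with 24.2 TPM in pup 1, 50.4 TPM in pup 3 and a ratio of 0.509.

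All 15 macrophage transcription factors were detected, with 320 TPM in pup 1 and 366 TPM in pup 3. Cebpb (94.9 and 108 TPM), Zeb2 (33.2 and 42.2 TPM) and Klf4 (34.4 and 38.3 TPM) led, and each is known from other cells too. Spi1, which encodes PU.1 and is needed for Csf1r transcription, held 21.2 and 20.9 TPM, above Csf1r in both pups. Rxra, which encodes the dimer partner of PPAR-gamma, held 8.47 and 9.1 TPM. No gene of this list differed by the 2-fold rule, and 2 were higher in pup 1 and 6 higher in pup 3 by the interval alone, against the same 24.6% and 21.6%.

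Of 16 other scavenger and phagocytic receptors, 12 were detected, and none differed by the 2-fold rule. Cd36 (313 and 300 TPM), the fatty acid and lipoprotein receptor known also from endothelium, Lrp1 (62.0 and 65.9 TPM) and Scarb2 (67.2 and 60.6 TPM) led. Msr1, the class A relative of Marco, held 3.18 and 3.0 TPM, below Marco in both pups. Of 14 TAM receptors, bridging ligands and efferocytosis genes, 11 were detected, led by Rac1 (287 and 282 TPM), Mfge8 (277 and 274 TPM) and Gas6. The MERTK ligand genes Gas6 (153 and 176 TPM) and Pros1 (65.4 and 65.8 TPM) both exceeded Mertk in each pup. Among the 3 TAM receptors, Axl (70.4 and 65.0 TPM) lay above Mertk and Mertk above Tyro3 (6.46 and 7.02 TPM), with no overlap between the pups.

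Other blood cells were represented unevenly. Of 8 monocyte markers 7 were detected, led by Ace (64.8 and 66.1 TPM), Plac8 and Ly6c2, with a sum of 192 and 176 TPM. Chil3, in that sum, is also on the list of mature alveolar macrophages. The part of monocytes in that sum was not tested. Of 10 neutrophil markers 8 were detected, led by S100a8 (381 and 379 TPM), S100a9 (182 and 190 TPM) and Retnlg (44.0 and 35.4 TPM). Mpo, a granule enzyme of neutrophil precursors, differed by the 2-fold rule on 41 and 18 counts, 2.06-fold higher in pup 1 (interval 1.15 to 3.80). It was the only 1 of 9 tested neutrophil markers to do so, against 1.40% of all tested genes. By the interval alone, 3 of the 9 were higher in pup 1 and 3 higher in pup 3, against 24.6% and 21.6%. Csf2ra and Csf2rb are expressed by neutrophils as well, and the part of these cells in their levels was not tested. Of 8 dendritic cell markers 2 were detected, Zbtb46 and Clec9a, while Flt3 (0.27 and 0.21 TPM) and Xcr1 (0.05 and 0.03 TPM) were under TPM 1. The part of dendritic cells in the levels of Zbtb46 and Clec9a was not tested. Of 8 mast cell and basophil markers 5 were detected, and Mcpt4 differed by the 2-fold rule on 42 and 13 counts, 2.92-fold higher in pup 1 (interval 1.54 to 5.92). Mcpt4 was the only 1 of 6 tested markers of this list to do so, against the same 1.40%. By the interval alone, 3 of these 6 were higher in pup 1 and 1 higher in pup 3. The 8 alveolar type 1 markers were all detected, with 5601 and 6073 TPM.

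**Figure D4:**
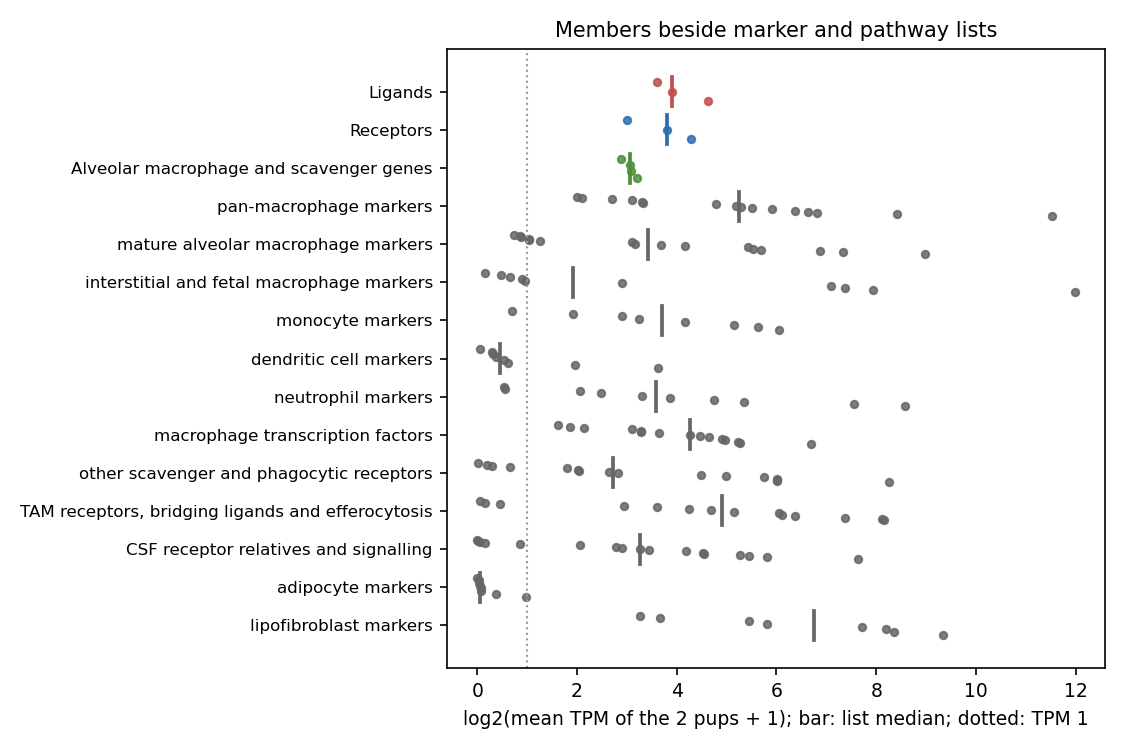
Each point is the mean level of 1 gene over the 2 pups as log2(mean TPM + 1), grouped by list, with a bar at the list median and a dotted line at TPM 1. The 10 member genes lie to the right of that line, all 16 pan-macrophage markers do too, and all 8 adipocyte markers lie to its left.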

How the data were processed

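Total RNA of both lungs of 2 pups, extracted with the Ambion mirVana kit per the labels, was measured, 1 library per pup and 1 group in all. The gene and transcript tables deposited by the authors hold expected counts, TPM, FPKM and isoform percent with posterior means and SDs, per the file headers. The deposited expected counts need not be whole, since reads shared by features were divided among them. The authors' TPM and FPKM are scaled by effective length, per the file headers, and isoform percent is the share of a gene's abundance in a transcript. The deposited text files name assembly mm10 and annotation M4. For aligner, counting program and use of strand the entry is "not given in the sources used here", so genes with an antisense or overlapping partner are uncertain.

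Names and coordinates came from GENCODE M21 on the same assembly, by identifier without version, and sequences from its transcripts and from RefSeq promoters. Differences of sets are in log2(TPM + 1) within a library. For ratios between pups, rounded counts were set on 1 scale with the TMM factors of edgeR 4.0.16 in R 4.3.3, by which the library of pup 1 was 1.11 times as large. The 2-fold rule uses a prior count of 0.5, and intervals are exact conditional binomial, at 95% (scipy 1.17.1). Intervals and the limit of 3 counts cover counting error only. The rule was also run on simulated counts that held counting error only and planted changes larger than 2-fold. That run cannot show how the rule behaves under differences between animals or library preparations.

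The members, 19 other lists and 14 pairs of genes or sets were chosen with earlier results of these data known. Named are the members, the 3 highest genes of a list, those past the 2-fold rule, and defining markers under TPM 1. Other list genes in the text (Adgre1, Siglecf, Socs3, Spi1, Rxra, Msr1, Il3ra, Pros1, Axl, Tyro3 and the detected lymphoid and dendritic markers) were named after their values were seen. So were the detected markers of mature alveolar, interstitial and fetal macrophages beyond the 3 highest. The values of 1 list gene that this rule takes are not reported here. Genes of like pattern were not sought, since there are only 2 libraries. Alternatives were the pseudocount, FPKM, posterior means, leaving out a pup or a gene, DESeq2 1.42.0 size factors, total counts and spike-ins as scaling, and no count minimum. No promoter, protein or aligned read beyond those named was used here.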

Additional observations from a re-analysis of the deposited data

Results flagged for a closer look

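A signal was present in antisense models, which no comparison above used. Gm15895, which overlaps Il34 on the opposite strand, had 27 counts in pup 1 and 32 in pup 3, above the limit of 3 counts that a count of 0 allows. These were 1.32 and 1.84 TPM. Il34 itself had 763 and 912 counts. The posterior SD of the Il34 count was 0 in both pups, so the counting showed no division of its reads with another gene. Whether counting used strand is not given in the sources used here, so the strand behind either count is not known. The origin of the antisense counts was not tested. Of the other antisense models that overlap members, Gm15894 at Il34 had 2 and 4 counts, Gm12223 at Csf2 had 0 and 1, and Gm14011 at Mertk had 2 and 1. Gm44079 at Pparg was not analysed here.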

How the results depend on the processing

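No paired analysis was possible because there is 1 group with 2 libraries. The direction of all 3 differences between sets held under a pseudocount of 0.1, FPKM, posterior mean TPM and summed TPM. Within a library FPKM is TPM times a constant, so FPKM could change only the weight of the pseudocount. As the log2 ratio of summed TPM, receptors minus alveolar macrophage genes moved from 0.63 to 0.38 and ligands minus alveolar macrophage genes from 0.98 to 0.72. No member was under TPM 1 in both pups, so leaving such genes out changed nothing. Leaving out 1 gene at a time was added after seeing the data. Ligands minus receptors then ranged from 0.00 without Csf2rb and 0.06 without Il34, through 0.39 without Csf2ra, 0.41 without Csf2 and 0.57 without Csf1, to 0.64 without Csf1r. Receptors minus alveolar macrophage genes moved to 0.34 without Csf1r and 0.98 without Csf2rb, and ligands minus alveolar macrophage genes to 0.69 without Il34 and 1.20 without Csf1. With 1 pup left out in turn, the 3 differences ranged from 0.31 to 0.38, from 0.55 to 0.71 and from 0.86 to 1.09. Without pup 1, Csf2 minus Csf2ra reversed to -0.13, Mrc1 minus Marco to -0.02 and Mertk minus Marco to -0.07 (0.36 without pup 3 for the first and last of these), and Mrc1 minus Marco was -0.02 in posterior mean TPM as well.

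The number of members past the 2-fold rule was 0 in each of the 6 alternatives. Genes higher in pup 1 numbered 104 and became 161 with spike-in scaling, 321 with no count minimum and 31 with deposited TPM + 1. Genes higher in pup 3 numbered 117 and became 82 with spike-in scaling, 380 with no count minimum and 54 with deposited TPM + 1. No count minimum adds genes of few counts. Spike-in scaling put the size ratio of pup 1 to pup 3 at 1.00, against 1.11 with TMM, and so raised the ratios of pup 1 over pup 3. The median log2 ratio of all tested genes thereby moved from 0.01 to 0.15. Spike-in scaling rested on 317 and 316 counts, and their own counting error was not included. The cause of the change with deposited TPM + 1 was not tested. The 7 members whose interval left out 1 became 6 under total count and spike-in scaling. Depth limits the transcript shares, since Pparg-201 rested on 169 and 134 counts.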
